A study of Mus musculus with 75 samples.

Results

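Lipopolysaccharide (LPS) was compared with phosphate-buffered saline (PBS) at 24 h in colon of mice that lack the receptor Gpr37. The comparison took every 24 h library labelled knockout and colon, which gave 9 of the series' 75 libraries, 4 after LPS and 5 after PBS, and it covered the 14903 genes that passed a filter on low counts. All 9 mice were labelled Gpr37-/- and carried a green fluorescent protein (eGFP) reporter, and all 9 libraries were labelled as EGC, enteric glial cells, of the myenteric plexus. Both the LPS and the PBS mice thus carried the knockout and the reporter, and they differed by a single injection into the peritoneum, of LPS at 2 mg/kg in PBS or of PBS alone. How the cells were isolated from the plexus is not given in the sources used here. Each library came from a different mouse. The LPS libraries came from mice 11, 17, 2 and 21 (male, male, male and female) and the PBS libraries from mice 12, 15, 1, 20 and 7 (male, male, male, female and female), and per-library values below are given in that order. The series set these beside mice with intact Gpr37 and beside the small intestine, in the same 24 h experiment of 37 libraries.

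LPS is a component of the outer membrane of Gram-negative bacteria that is sensed by TLR4 with CD14 and MD-2. Its signal runs through MyD88 to NF-kappaB, which drives chemokine and acute phase genes, and through TRIF to interferons, whose receptors induce a second set of genes that includes antiviral effectors, guanylate-binding proteins and antigen presentation. Enteric glia surround the neurons of the gut wall and, like astrocytes of the brain, change their gene expression in inflammation. Gpr37 is a G protein-coupled receptor found on glia, formally an orphan, for which prosaposin peptides have been proposed as ligands.

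Total counts per library ran from 3555130 to 13485308 (median 8286820), and 12757 to 14830 genes had at least 1 count. Levels of single genes are CPM (counts scaled to library size, with TMM factors), and summed levels of marker lists are CPM of the library total without TMM factors. They are not divided by gene length, so they were compared between libraries and not between genes. Gpr37 had 0, 0, 1 and 0 counts in the LPS libraries and 0, 9, 0, 0 and 1 in the PBS libraries, beside 110, 39, 97 and 33 counts in the 4 wild-type colon libraries after PBS. The share of mitochondrial counts was 2.34% to 17.9% after LPS and 3.11% to 26% after PBS, a difference of -2.82 percentage points (exact two-sided permutation p = 0.690, where the smallest p that 4 against 5 allows is 0.0159). Mice 1, 2 and 7 stood apart from the other 6. Their summed fibroblast markers (10 genes) came to 3488, 1648 and 7254 CPM, against 16040 to 22390 CPM elsewhere, and their mitochondrial shares were 16.9%, 17.9% and 26%, against 2.34% to 6.31% elsewhere. Mouse 2 was in the LPS group and mice 1 and 7 were in the PBS group, so results were also computed in the 6 libraries of mice 11 and above. Glial markers (20 genes) summed to 5387 to 7998 CPM after LPS and 2379 to 23700 CPM after PBS, with mouse 20 lowest and mouse 1 highest. In bulk RNA of this kind, fewer cells of a type and less RNA per cell cannot be told apart.

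After LPS, 95 genes were higher and 12 were lower at an adjusted p under 0.05 (edgeR quasi-likelihood test, Benjamini-Hochberg adjustment over all genes). These 107 genes are 0.718% of those tested, with 0.637% higher and 0.0805% lower, and 12.4% had an unadjusted p under 0.05. The higher genes included acute phase proteins, metallothioneins, interferon-induced genes, guanylate-binding proteins and chemokines. Lowered genes included Wfdc1, Pmepa1, Tppp3, Maged2 and Prss23. In 85 of the 107 every LPS library lay outside the PBS range. Over all genes, 2.07% had every LPS library above and 1.37% every LPS library below. Passing the test favours such separation, so this count is no separate support for the calls. All 9 fits that left out 1 library, the fit with same-numbered mice as a block and the fit of mice 11 and above called the same 19 genes: Ccnd2, Cebpd, Cp, Fkbp5, Icam1, Ifitm2, Ifitm3, Irf7, Lcn2, Lypd6, Maged2, Mt1, Mt2, Saa3, Serpina3n, Sod2, Tnip1, Zbp1 and Zfas1. A fit of the 9 libraries alone called 5 of these 19 (Cebpd, Irf7, Mt1, Mt2 and Serpina3n) and, in all, 7 genes, the others being Cxcl1 and Ncoa7, so the remaining calls described below did not pass, or were not tested, there. Of the 107, 48 belong to at least 1 of the 34 gene lists used below and 59 to none. Among the marker lists of 11 cell types, the sum of the neutrophil list did not overlap between the groups (488 to 1210 CPM after LPS, 2.04 to 188 CPM after PBS) and so moved with each group of raised genes below. That separation rested on 1 member, Lrg1, without which the sums overlapped (12.6 to 526 CPM after LPS, 0.323 to 65.7 CPM after PBS). The part of these markers in the raised genes was not tested beyond the values given with them. Where the median of a gene list changed sign or moved by over 1.5 times in another fit, it is followed by its range over the 17 other fits. The count of calls depended on the fit and on single libraries. It was 7, all of them higher, in the 9 libraries alone, and 474 with DESeq2 (271 higher and 203 lower). It was 28 without LPS mouse 2 (27 of them among the 107), 64 without LPS mouse 17 and 191 without LPS mouse 11, and 53 with the block (43 of them among the 107).

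Acute phase proteins, which liver and inflamed tissue secrete, were raised as far as they passed. Of 18 tested members of the list, 9 rose and none fell, with a median log2 difference of 5.29 over the list (3.15 with the 4 members whose PBS or LPS libraries all held 3 or fewer counts set at their bound) against -0.07 over all genes. Serpina3n encodes a secreted protease inhibitor and stood at 1035, 1944, 1087 and 1773 CPM after LPS and 63.9, 69.3, 44.4, 93.7 and 122 CPM after PBS. Every LPS library was far above the highest PBS library, and the gene rose by 4.21 ± 0.57 (SE) on the log2 scale (adjusted p = 6.82e-05).

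Lcn2, lipocalin 2, which withholds iron from bacteria by binding their siderophores, was at 1074, 6750, 5003 and 5149 CPM after LPS and 124, 120.5, 5.22, 60.1 and 49.4 CPM after PBS. LPS mouse 11 was the lowest of its group and still far above PBS mouse 12, the highest control; the gene rose by 5.97 ± 1.07 (SE) on the log2 scale (adjusted p = 0.0042). Saa3, a serum amyloid A made outside the liver, was at 1185, 15090, 3834 and 14740 CPM after LPS and 7.53, 5.26, 13.5, 2.05 and 133 CPM after PBS. The groups did not overlap, with PBS mouse 7 the highest control, and Saa3 rose by 8.09 ± 1.66 (SE) on the log2 scale (adjusted p = 0.0117). Ceruloplasmin (Cp), a copper-carrying ferroxidase, was at 256, 768, 343 and 651 CPM after LPS and 126.2, 139.8, 26.6, 52.3 and 85.0 CPM after PBS, with no overlap. It rose by 2.55 ± 0.48 (SE) on the log2 scale (adjusted p = 0.00705). Timp1, an inhibitor of matrix metalloproteinases, was at 59.2, 232, 414 and 146 CPM after LPS and 11.7, 25.3, 9.47, 17.3 and 88.1 CPM after PBS. It rose by 2.81 ± 0.54 (SE) on the log2 scale (adjusted p = 0.00732), although LPS mouse 11 lay below PBS mouse 7. Serpina3i had no count in any PBS library and 5.40, 21.5, 86.0 and 11.3 CPM after LPS, which put it at least 67.8-fold higher (against a floor of 3 counts per library, averaged over the group; adjusted p = 0.00916), or at least 27.8-fold without LPS mouse 2. Serpina3i, Serpina3f and Serpina3n belong to a cluster of near-identical genes, and how reads common to several of them were counted is not given. The remaining called members, outside the rule for named genes, were Slc39a14, Serpina3f and Hp. Haptoglobin (Hp), which binds free hemoglobin, was at 1083, 1001, 4.02 and 759 CPM after LPS and 17.4, 6.87, 6.43, 1.84 and 1.80 CPM after PBS; LPS mouse 2 was within the PBS range while the other 3 LPS libraries were far above it. Chil1, a chitinase-like secreted protein outside the list, was at 23.8, 584, 1207 and 346 CPM after LPS and 7.79, 13.3, 15.5, 1.30 and 21.2 CPM after PBS and rose by 5.52 ± 1.15 (SE) on the log2 scale (adjusted p = 0.0133). With same-numbered mice as a block the adjusted p was 0.1 for Slc39a14, 0.0648 for Serpina3f, 0.28 for Hp and 0.0885 for Chil1. In mice 11 and above alone (3 LPS, 3 PBS), the log2 difference of these genes with counts in both groups was 2.43 to 11.10, and Serpina3i (adjusted p = 0.141), Chil1 (adjusted p = 0.141), Slc39a14 (adjusted p = 0.086) and Serpina3f (adjusted p = 0.295) did not pass. Without LPS mouse 2 the adjusted p was 0.067 for Timp1, 0.0687 for Chil1 and 0.0508 for Slc39a14. Serpina3f missed the threshold without any 1 of LPS mouse 2, or PBS mice 12, 1, 20 or 7 (adjusted p = 0.0539 to 0.17). Hp missed the threshold without any 1 of PBS mice 15, 1, 20 or 7 (adjusted p = 0.0629 to 0.0654).

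The promoter of Serpina3n is shown because it holds, as does that of Mt1 below, a sequence of the kind the glucocorticoid receptor binds. It is the 250 bases before the start of the gene (RefSeq, GRCm38.p6, chr12:104406458-104406707, plus strand), with the match to GNACANNNTGTNC in capitals, at bases 78 to 66 before the start.
Serpina3n: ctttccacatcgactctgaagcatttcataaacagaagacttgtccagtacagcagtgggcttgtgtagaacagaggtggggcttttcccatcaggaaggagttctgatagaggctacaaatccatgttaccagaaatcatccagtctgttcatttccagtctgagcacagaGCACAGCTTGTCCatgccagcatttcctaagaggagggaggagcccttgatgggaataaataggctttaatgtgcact
Of 11631 tested genes with a RefSeq promoter sequence, 0.31% held this motif on either strand, and of the 75 higher genes with a sequence 4 did (5.33%), namely Mt1, Serpina3n, Slc10a6 and Trim63. A match describes these letters only.

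**Figure D1:**
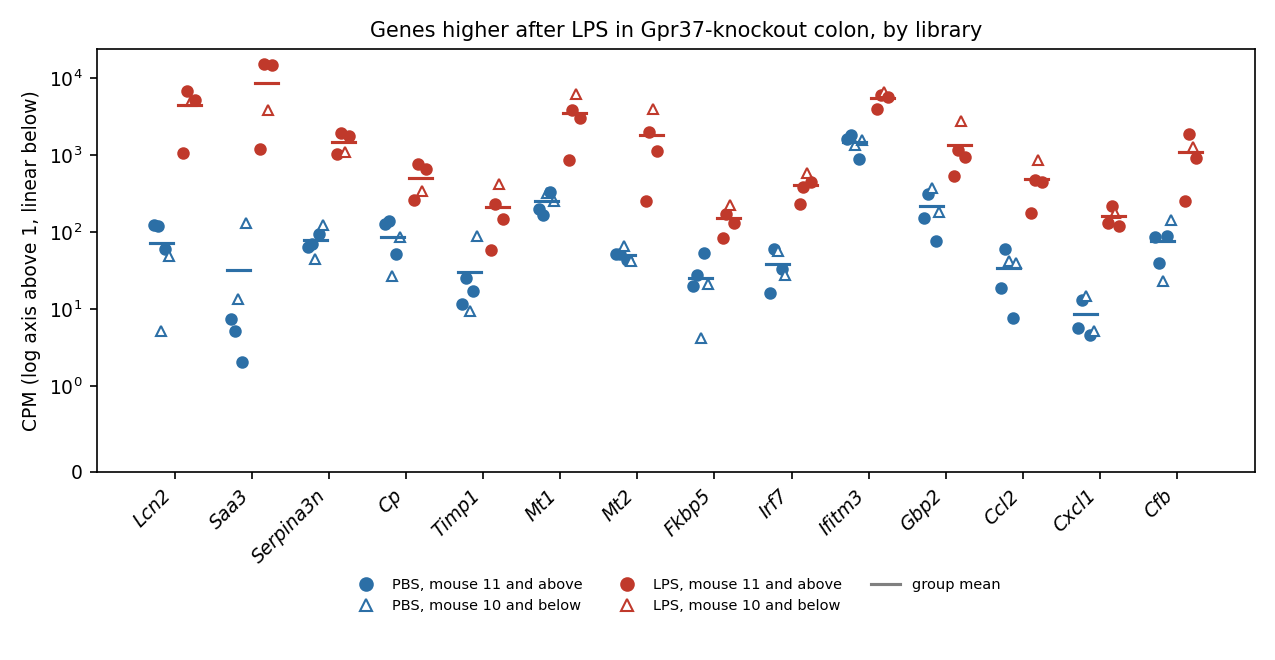
CPM of 14 genes, on an axis that is logarithmic above 1, in each library of knockout colon, PBS in blue and LPS in red, with bars at the group means; open triangles are mice 10 and below and circles mice 11 and above. Lcn2 runs from 5.22 to 124 CPM after PBS and from 1074 to 6750 CPM after LPS, and LPS mouse 11 is the lowest LPS library for Lcn2, Saa3, Mt1 and Mt2.

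Metallothioneins, small cysteine-rich proteins that bind zinc and copper, were higher in every LPS library than in any PBS library. Mt1 was at 857, 3851, 6133 and 2982 CPM after LPS and 196, 168, 319, 331 and 253 CPM after PBS. Mt2 was at 255, 2013, 3944 and 1115 CPM after LPS and 52.5, 51.5, 65.5, 43.5 and 41.9 CPM after PBS. For both genes LPS mouse 2 was highest and LPS mouse 11 lowest, and no LPS library reached down to the PBS range. Mt1 rose by 3.77 ± 0.50 (SE) on the log2 scale (adjusted p = 6.82e-05) and Mt2 rose by 5.17 ± 0.69 (SE) on the log2 scale (adjusted p = 6.82e-05). Sod2, the mitochondrial superoxide dismutase, was at 157, 590, 761 and 362 CPM after LPS and 71.4, 62.3, 100.1, 101 and 97.4 CPM after PBS. Its groups did not overlap either, and it rose by 2.44 ± 0.35 (SE) on the log2 scale (adjusted p = 0.000155). Acod1 makes itaconate, an antibacterial metabolite of activated macrophages. It had no count in any PBS library and was at 0, 19.2, 113 and 18.7 CPM after LPS, so that it was at least 82.1-fold higher (adjusted p = 0.00357), or at least 27.5-fold without LPS mouse 2. LPS mouse 11 was also at 0. These 4 were the called members of 16 genes for itaconate, nitric oxide and redox enzymes, whose median log2 difference was 1.32 (range 0.59 to 1.73). Among mice 11 and above, the log2 difference of Mt1, Mt2 and Sod2 was 3.49, 4.55 and 2.27, and Acod1 (adjusted p = 0.0863) did not pass.

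Glucocorticoid-induced genes formed a list of 15, which shares Mt1, Mt2 and Lcn2 with the groups above. All 15 had a positive log2 difference (median 1.34), 5 rose and 7 had every LPS library above every PBS library, against 2.07% of all genes. Fkbp5, a co-chaperone of the glucocorticoid receptor that the receptor itself induces, was at 83.2, 171, 226 and 131 CPM after LPS and 19.7, 28.0, 4.25, 52.8 and 21.4 CPM after PBS. PBS mouse 20 was the highest control and lay below every LPS library; Fkbp5 rose by 2.59 ± 0.48 (SE) on the log2 scale (adjusted p = 0.00619). Angptl4, an inhibitor of lipoprotein lipase, was at 221, 390.3, 641 and 274 CPM after LPS and 113, 30.6, 7.89, 29.1 and 17.4 CPM after PBS and rose by 3.28 ± 0.74 (SE) on the log2 scale (adjusted p = 0.0219). Under the block of same-numbered mice the adjusted p became 0.0906 for Angptl4. Restricted to mice 11 and above, the log2 difference of Fkbp5 and Angptl4 was 1.94 and 2.41, and both passed. Angptl4 missed the threshold without any 1 of LPS mouse 2, or PBS mice 15, 1, 20 or 7 (adjusted p = 0.0539 to 0.105).

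Mt1 had the promoter with both a match to GNACANNNTGTNC, at bases 94 to 82 before the start, and one to TGCACNC, the core of the element that the zinc sensor MTF1 binds, at bases 23 to 17; both are in capitals (RefSeq, GRCm38.p6, chr8:94178839-94179088, plus strand).
Mt1: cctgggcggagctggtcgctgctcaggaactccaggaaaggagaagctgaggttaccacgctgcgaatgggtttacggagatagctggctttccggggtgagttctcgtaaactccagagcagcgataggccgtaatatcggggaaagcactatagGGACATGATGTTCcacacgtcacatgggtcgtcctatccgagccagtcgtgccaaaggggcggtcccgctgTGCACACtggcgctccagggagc
TGCACNC or TGCGCNC was common, on either strand in 29.3% of all promoters and in 20 of the 75 promoters of higher genes (26.7%).

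Interferon-induced genes leaned upward without passing the test in most cases. Of 40 tested, 36 had a positive log2 difference (median 0.93) and 13 had every LPS library above every PBS library, against 2.07% of all genes. Of the 40, 5 rose, against 0.637% of all genes, and none fell. Irf7, the transcription factor that amplifies type I interferon, had the smallest adjusted p of all genes. It was at 228, 383, 589.5 and 444 CPM after LPS and 16.1, 60.9, 56.2, 33.3 and 27.9 CPM after PBS. The groups were far apart, and Irf7 rose by 3.40 ± 0.36 (SE) on the log2 scale (adjusted p = 1.25e-06). Ifitm3, a membrane protein that blocks virus entry, was at 3897, 5919, 6604 and 5692 CPM after LPS and 1608, 1822, 1353, 892 and 1581 CPM after PBS and rose by 1.93 ± 0.27 (SE) on the log2 scale (adjusted p = 9.98e-05). Zbp1, a sensor of Z-form nucleic acid that can start necroptosis, was at 53.1, 135, 131 and 81.1 CPM after LPS and 5.19, 31.1, 42.1, 8.34 and 24.1 CPM after PBS and rose by 2.17 ± 0.42 (SE) on the log2 scale (adjusted p = 0.00786). Bst2, tetherin, which holds budding virus at the cell surface, was at 304, 271, 522 and 249 CPM after LPS and 127, 150.1, 189, 65.8 and 159.6 CPM after PBS and rose by 1.28 ± 0.27 (SE) on the log2 scale (adjusted p = 0.0153). In all 3 genes the groups did not overlap. The fifth call, outside the rule for named genes, was Ifi27l2a, at 1456, 1019, 1010 and 1123 CPM after LPS and 409, 346, 532, 399 and 595 CPM after PBS, where the groups did not overlap. Its difference was 1.34 ± 0.33 (SE) on the log2 scale (adjusted p = 0.0409). The blocked fit gave an adjusted p of 0.0793 for Ifi27l2a. Within the 6 libraries of mice 11 and above, the log2 difference of these genes was 1.29 to 3.27, and Bst2 (adjusted p = 0.0677) and Ifi27l2a (adjusted p = 0.0515) did not pass. Leaving out LPS mouse 2 gave an adjusted p of 0.16 for Bst2. Ifi27l2a missed the threshold without any 1 of LPS mice 11, 17, 2 or 21, or PBS mice 12, 15, 1 or 20 (adjusted p = 0.0629 to 0.105). Outside these 5 calls, Xaf1, an interferon-induced partner of XIAP, passed with the block (adjusted p = 0.0123) and, with Usp18 and Rtp4, in mice 11 and above (adjusted p = 0.0251, 0.0213 and 0.0178).

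Guanylate-binding proteins are interferon-induced GTPases that coat and open vacuoles holding bacteria. Of 10 tested, 4 rose, against 0.637% of all genes, and none fell (median log2 difference 1.68). In these 4 every LPS library was above every PBS library, against 2.07% of all genes. Gbp2 was at 526, 1156, 2795 and 941 CPM after LPS and 154, 315, 369.7, 75.6 and 180.1 CPM after PBS and rose by 2.63 ± 0.50 (SE) on the log2 scale (adjusted p = 0.00705). Gbp5 was at 20.7, 38.2, 122 and 31.2 CPM after LPS and 3.90, 9.90, 12.3, 0.683 and 0 CPM after PBS and rose by 3.28 ± 0.73 (SE) on the log2 scale (adjusted p = 0.021). Both were highest in LPS mouse 2. Gbp4 rose by 2.60 ± 0.53 (SE) on the log2 scale (adjusted p = 0.0102), from 9.70 to 68.0 CPM to 88.0 to 255 CPM, and Gbp10 rose by 3.61 ± 0.81 (SE) on the log2 scale (adjusted p = 0.0219), from 0 to 4.10 CPM to 8.91 to 34.0 CPM. Gbp genes have close copies, so reads of 1 member may have been counted for another. Adjusted p in the fit with the block was 0.0793 for Gbp10. In mice 11 and above alone (3 LPS, 3 PBS), the log2 difference of these genes was 1.95 to 3.04, and Gbp4 (adjusted p = 0.166), Gbp5 (adjusted p = 0.108) and Gbp10 (adjusted p = 0.158) did not pass. Without LPS mouse 2 the adjusted p was 0.0789 for Gbp2 and 0.067 for Gbp4. Gbp5 missed the threshold without any 1 of LPS mouse 2, or PBS mouse 12 (adjusted p = 0.0592 to 0.215). Gbp10 missed the threshold without any 1 of LPS mouse 2, or PBS mice 12 or 20 (adjusted p = 0.0511 to 0.0896). Gbp6 differed by 1.98 ± 0.56 (SE) on the log2 scale (adjusted p = 0.0935) and passed with the block (adjusted p = 0.017). The related IRG GTPases gave no call (1 with the block, Ifi47, adjusted p = 0.0454) among 8 tested, all with a positive log2 difference (median 1.12). Nearest were Tgtp1 at 2.43 ± 0.61 (SE) on the log2 scale (adjusted p = 0.0517) and Iigp1 at 1.37 ± 0.39 (SE) on the log2 scale (adjusted p = 0.093).

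The promoter of Gbp5 is shown because it holds matches to motifs of both branches of the response (RefSeq, GRCm38.p6, chr3:142496684-142496933, plus strand). Capitals mark, from the 5′ end, TTCNNNGAA at bases 245 to 237 before the start, GAAANNGAAA on the minus strand (the interferon-stimulated response element) at 165 to 156, GGGANNTTCC (NF-kappaB) on the minus strand at 77 to 68, TTCNNNGAA again at 52 to 44, and TGCACNC on the minus strand at 25 to 19.
Gbp5: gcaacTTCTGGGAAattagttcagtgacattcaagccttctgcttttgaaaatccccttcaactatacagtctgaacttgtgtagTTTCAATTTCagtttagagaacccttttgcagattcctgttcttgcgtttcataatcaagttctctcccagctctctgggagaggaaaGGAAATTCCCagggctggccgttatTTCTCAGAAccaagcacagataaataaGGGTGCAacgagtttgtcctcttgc
GAAANNGAAA stood in 2.8% of all promoters and in 7 of the 75 of higher genes (9.33%), TTCNNNGAA in 5.97% and in 10 of 75 (13.3%), both strands searched.

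Genes of antigen presentation by MHC class I were raised in 4 of 23, against 0.637% of all genes, with 20 positive log2 differences (median 0.76). H2-T23, a non-classical class I chain, was at 203, 281, 752 and 296 CPM after LPS and 46.5, 110.1, 99.5, 53.5 and 114 CPM after PBS. The groups did not overlap, and it rose by 2.17 ± 0.38 (SE) on the log2 scale (adjusted p = 0.00357). Psme1, a subunit of the proteasome activator PA28, was at 194, 410, 523 and 310 CPM after LPS and 131, 141, 168, 136 and 211 CPM after PBS. It rose by 1.19 ± 0.23 (SE) on the log2 scale (adjusted p = 0.00891), with LPS mouse 11 below PBS mouse 7. Tapbp, tapasin, which loads peptides onto class I, rose by 1.20 ± 0.25 (SE) on the log2 scale (adjusted p = 0.0147), from 368 to 575 CPM to 771 to 1286 CPM. H2-T22, which shares sequence with other H2-T genes, rose by 1.43 ± 0.33 (SE) on the log2 scale (adjusted p = 0.0253), from 15.9 to 43.6 CPM to 57.6 to 102 CPM. Their classical partners had positive differences that did not pass, at 0.76 for H2-K1 (adjusted p = 0.31), 0.73 for H2-D1 (adjusted p = 0.482) and 0.91 for B2m (adjusted p = 0.288). With same-numbered mice as a block the adjusted p was 0.0648 for Tapbp. Among mice 11 and above, the log2 difference of these genes was 1.10 to 1.91, and Tapbp (adjusted p = 0.0528) did not pass. Leaving out LPS mouse 2 gave an adjusted p of 0.0508 for H2-T23 and 0.0853 for Psme1. Tapbp missed the threshold without any 1 of LPS mice 17 or 2 (adjusted p = 0.0534 to 0.0789). H2-T22 missed the threshold without any 1 of LPS mice 17, 2 or 21, or PBS mice 12 or 20 (adjusted p = 0.0699 to 0.094). H2-Q6, a class I gene with close copies, passed in the fit with the block (adjusted p = 0.0102). MHC class II gave no call among 9 genes (median 0.13, range -1.39 to 1.00), and its regulator Ciita was at -2.05 ± 1.29 (SE) on the log2 scale (adjusted p = 0.546). Ubd, an interferon- and TNF-induced ubiquitin-like protein, was at 14.7, 57.8, 389.5 and 12.2 CPM after LPS and 0, 0.981, 0, 0 and 0.451 CPM after PBS. Every LPS library was above every PBS library, and it rose by 8.53 ± 1.33 (SE) on the log2 scale (adjusted p = 0.000571), a value that rests on control counts near 0. Its log2 difference of 6.21 in mice 11 and above did not pass (adjusted p = 0.0505).

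Chemokines that draw monocytes and neutrophils rose in 4 genes. Ccl2, the main monocyte attractant, was at 179, 478, 856 and 442 CPM after LPS and 18.9, 60.0, 42.1, 7.58 and 39.7 CPM after PBS. Its groups did not overlap, and it rose by 3.86 ± 0.77 (SE) on the log2 scale (adjusted p = 0.00941). Ccl5, which attracts T cells and monocytes, was at 33.4, 844, 5165 and 372 CPM after LPS and 3.38, 8.02, 10.6, 1.09 and 122 CPM after PBS. LPS mouse 2 was highest by far, LPS mouse 11 lay below PBS mouse 7, and Ccl5 rose by 5.79 ± 1.20 (SE) on the log2 scale (adjusted p = 0.0118). These were the 2 calls among 18 CC chemokines, whose median log2 difference was -0.17 (range -1.09 to 0.89, so that its sign was not fixed). Cxcl1, a neutrophil attractant, was at 129, 215, 177 and 120.2 CPM after LPS and 5.71, 13.1, 14.7, 4.65 and 5.18 CPM after PBS. The groups stood well apart, and it rose by 4.20 ± 1.05 (SE) on the log2 scale (adjusted p = 0.0483). Cxcl5, of the same receptor, was at 3.06, 202, 249.6 and 60.5 CPM after LPS and 0, 0.446, 2.79, 0.888 and 0 CPM after PBS and rose by 7.12 ± 1.64 (SE) on the log2 scale (adjusted p = 0.0242). Among 13 CXC chemokines these 2 rose, and 12 had a positive difference (median 3.50). Cxcl10 and Cxcl9, which interferon induces, differed by 3.02 (adjusted p = 0.213) and 5.46 (adjusted p = 0.0823). Under the block of same-numbered mice the adjusted p became 0.145 for Cxcl1 and 0.107 for Cxcl5. Restricted to mice 11 and above, the log2 difference of these genes was 3.69 to 7.30, and Ccl2 (adjusted p = 0.118), Cxcl1 (adjusted p = 0.141) and Cxcl5 (adjusted p = 0.123) did not pass. Without LPS mouse 2 the adjusted p was 0.0508 for Ccl2 and 0.146 for Ccl5, and the log2 difference of Ccl5 was reduced to 3.85. Cxcl1 missed the threshold without any 1 of LPS mice 17, 2 or 21, or PBS mice 12, 15, 1, 20 or 7 (adjusted p = 0.0664 to 0.117). Cxcl5 missed the threshold without any 1 of LPS mice 17 or 2, or PBS mice 12, 15, 20 or 7 (adjusted p = 0.0555 to 0.0853).

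Cxcl1 had the NF-kappaB motif in its promoter, which is shown for that reason (RefSeq, GRCm38.p6, chr5:90890995-90891244, plus strand). Capitals mark GGGANNTTCC, which matched on both strands at bases 71 to 62 and 70 to 61 before the start, overlapping.
Cxcl1: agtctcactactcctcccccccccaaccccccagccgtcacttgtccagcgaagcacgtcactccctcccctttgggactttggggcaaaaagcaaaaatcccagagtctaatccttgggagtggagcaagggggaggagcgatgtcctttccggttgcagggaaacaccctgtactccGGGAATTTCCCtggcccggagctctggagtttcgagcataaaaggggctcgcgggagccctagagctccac
The motif stood in 1.19% of all promoters and in 4 of the 75 of higher genes (5.33%), namely Cxcl1, Gbp5, Ifitm3 and Ms4a4a.

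Upstream, the LPS-sensing machinery gave 1 call among 18 genes (median 0.87, range 0.49 to 0.97). That was Lbp, the serum protein that hands LPS to CD14, at 197, 592, 164 and 618 CPM after LPS and 131, 107, 50.4, 40.8 and 109 CPM after PBS. Every LPS library lay above the PBS range, and Lbp rose by 2.17 ± 0.48 (SE) on the log2 scale (adjusted p = 0.0191). Tlr4 itself was at 0.62 ± 0.52 (SE) on the log2 scale (adjusted p = 0.684) and Cd14 at 1.04 ± 0.66 (SE) on the log2 scale (adjusted p = 0.547). Of 16 NF-kappaB genes (median 1.35) 3 rose. Tnip1, a partner of the inhibitor A20, was at 69.8, 94.2, 65.1 and 86.3 CPM after LPS and 26.0, 29.9, 15.8, 41.2 and 19.8 CPM after PBS and rose by 1.57 ± 0.31 (SE) on the log2 scale (adjusted p = 0.00896). Nfkbib, an inhibitor that holds NF-kappaB in the cytoplasm, rose by 1.51 ± 0.32 (SE) on the log2 scale (adjusted p = 0.0165), from 14.0 to 39.9 CPM to 46.2 to 139 CPM. Birc3, a ubiquitin ligase of TNF receptor signalling, rose by 2.04 ± 0.51 (SE) on the log2 scale (adjusted p = 0.0453), from 0.451 to 14.6 CPM to 17.3 to 52.0 CPM. Nfkbia, the best-known target of the feedback, had every LPS library above every PBS library, at 1.34 ± 0.37 (SE) on the log2 scale (adjusted p = 0.0882). The blocked fit gave an adjusted p of 0.0756 for Lbp, 0.0793 for Nfkbib and 0.0971 for Birc3. Within the 6 libraries of mice 11 and above, the log2 difference of these genes was 1.10 to 2.37, and Birc3 (adjusted p = 0.249) did not pass. Leaving out LPS mouse 2 gave an adjusted p of 0.145 for Nfkbib. Lbp missed the threshold without any 1 of LPS mice 17 or 21, or PBS mice 1 or 20 (adjusted p = 0.0517 to 0.0855). Birc3 missed the threshold without any 1 of LPS mice 17, 2 or 21, or PBS mice 12, 15, 1 or 7 (adjusted p = 0.0522 to 0.229).

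Cytokine pathways were called in a few members each. Casp4, the cytosolic LPS sensor of the noncanonical inflammasome (caspase-11), was at 27.9, 71.4, 131 and 64.3 CPM after LPS and 8.05, 25.7, 21.4, 15.7 and 3.16 CPM after PBS and rose by 2.30 ± 0.42 (SE) on the log2 scale (adjusted p = 0.00554). Il18bp, which neutralizes IL-18, was at 55.9, 52.4, 254 and 47.8 CPM after LPS and 10.7, 33.5, 26.9, 3.48 and 6.54 CPM after PBS; LPS mouse 2 stood far above the others of its group, and the gene rose by 2.65 ± 0.52 (SE) on the log2 scale (adjusted p = 0.00786). Il1r2, a decoy receptor for IL-1, was at 0, 31.6, 0 and 19.6 CPM after LPS and 0, 0, 0.121, 0 and 0 CPM after PBS. Among the LPS libraries the counts came from mice 17 and 21, and the gene rose (adjusted p = 0.0464). These were the 3 calls among 14 IL-1 family genes (median 0.31, range 0.07 to 0.94). Among 20 genes of IL-6 and JAK-STAT signalling (median 0.26, range 0.12 to 0.53, or 0.45 with 1 gene at its bound and 1 left out for low counts in both groups), Stat3 and Csf3 rose. Stat3, the transcription factor of IL-6 signalling, was at 346, 323, 388 and 369.5 CPM after LPS and 177, 208, 195, 162 and 239 CPM after PBS and rose by 0.86 ± 0.20 (SE) on the log2 scale (adjusted p = 0.0292), with no overlap. Csf3, the growth factor of neutrophils (G-CSF), had no count after PBS and 8.70, 136, 65.1 and 9.76 CPM after LPS, at least 119.7-fold higher (adjusted p = 0.0231), or at least 60.8-fold without LPS mouse 17. Adjusted p in the fit with the block was 0.355 for Il1r2, 0.054 for Stat3 and 0.107 for Csf3. In mice 11 and above alone (3 LPS, 3 PBS), the log2 difference of Casp4, Il18bp and Stat3 was 1.73, 1.72 and 0.95, and Casp4 (adjusted p = 0.081), Il18bp (adjusted p = 0.181), Il1r2 (adjusted p = 0.18) and Csf3 (adjusted p = 0.163) did not pass. Without LPS mouse 2 the adjusted p was 0.0508 for Casp4 and 0.16 for Il18bp, and the log2 difference of Il18bp was reduced to 1.67. Il1r2 missed the threshold without any 1 of LPS mice 17, 2 or 21, or PBS mice 12, 15, 1, 20 or 7 (adjusted p = 0.0592 to 0.122). Stat3 missed the threshold without any 1 of LPS mice 17, 2 or 21, or PBS mice 12, 15, 1 or 20 (adjusted p = 0.0543 to 0.116). Csf3 missed the threshold without any 1 of LPS mice 17 or 2, or PBS mice 12, 15, 1, 20 or 7 (adjusted p = 0.0536 to 0.068). The IL-1 family had 1 call in mice 11 and above, Il18, which encodes the cytokine IL-18 and fell there by 4.10 on the log2 scale (adjusted p = 0.0415). Over all mice Il18 was at 1.85, 4.26, 3.75 and 3.98 CPM after LPS and 7.53, 9.27, 9.22, 154 and 21.0 CPM after PBS, highest in PBS mouse 20, the library highest in epithelial markers.

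None of the 14 genes of the TNF family list passed (median 0.30, range 0.15 to 0.66), with Fas, a death receptor, nearest at 1.76 ± 0.44 (SE) on the log2 scale (adjusted p = 0.0513). Complement gave 1 call of 18 (median 0.10, range -0.08 to 0.76): Cfb, factor B of the alternative pathway, was at 256, 1896, 1251 and 908 CPM after LPS and 87.2, 39.8, 23.3, 90.0 and 143 CPM after PBS and rose by 3.82 ± 0.84 (SE) on the log2 scale (adjusted p = 0.0191). C3, on which all complement pathways meet, had every LPS library above every PBS library, at 2591, 4855, 3253 and 3881 CPM against 725, 702, 253, 212 and 1082 CPM, but its difference of 2.62 ± 0.74 (SE) on the log2 scale (adjusted p = 0.0935) did not pass. In mice 11 and above it was 2.82 and passed (adjusted p = 0.0141), as did C1ra, a protease of the classical pathway (1.82, adjusted p = 0.0415). Icam1, the ligand of leukocyte integrins, was at 407, 364, 354 and 478 CPM after LPS and 106, 120, 27.1, 55.3 and 86.8 CPM after PBS. It rose by 2.34 ± 0.49 (SE) on the log2 scale (adjusted p = 0.0142) and was the 1 call of 11 leukocyte adhesion genes, all of which had a positive difference (median 1.67, range 1.37 to 3.32). Endothelial markers, which could carry adhesion genes, summed to 400.5 to 2004 CPM after LPS and 138.5 to 1508 CPM after PBS (8 genes, none at 0 throughout). All 8 had a positive log2 difference (median 0.84, range 0.445 to 1.25) and none passed. The part of endothelial markers in the result was not tested. With same-numbered mice as a block the adjusted p was 0.0874 for Cfb. Among mice 11 and above, the log2 difference of Cfb and Icam1 was 3.85 and 2.18, and both passed. Cfb missed the threshold without any 1 of LPS mice 17 or 2, or PBS mice 15 or 1 (adjusted p = 0.0614 to 0.0675).

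**Figure D2:**
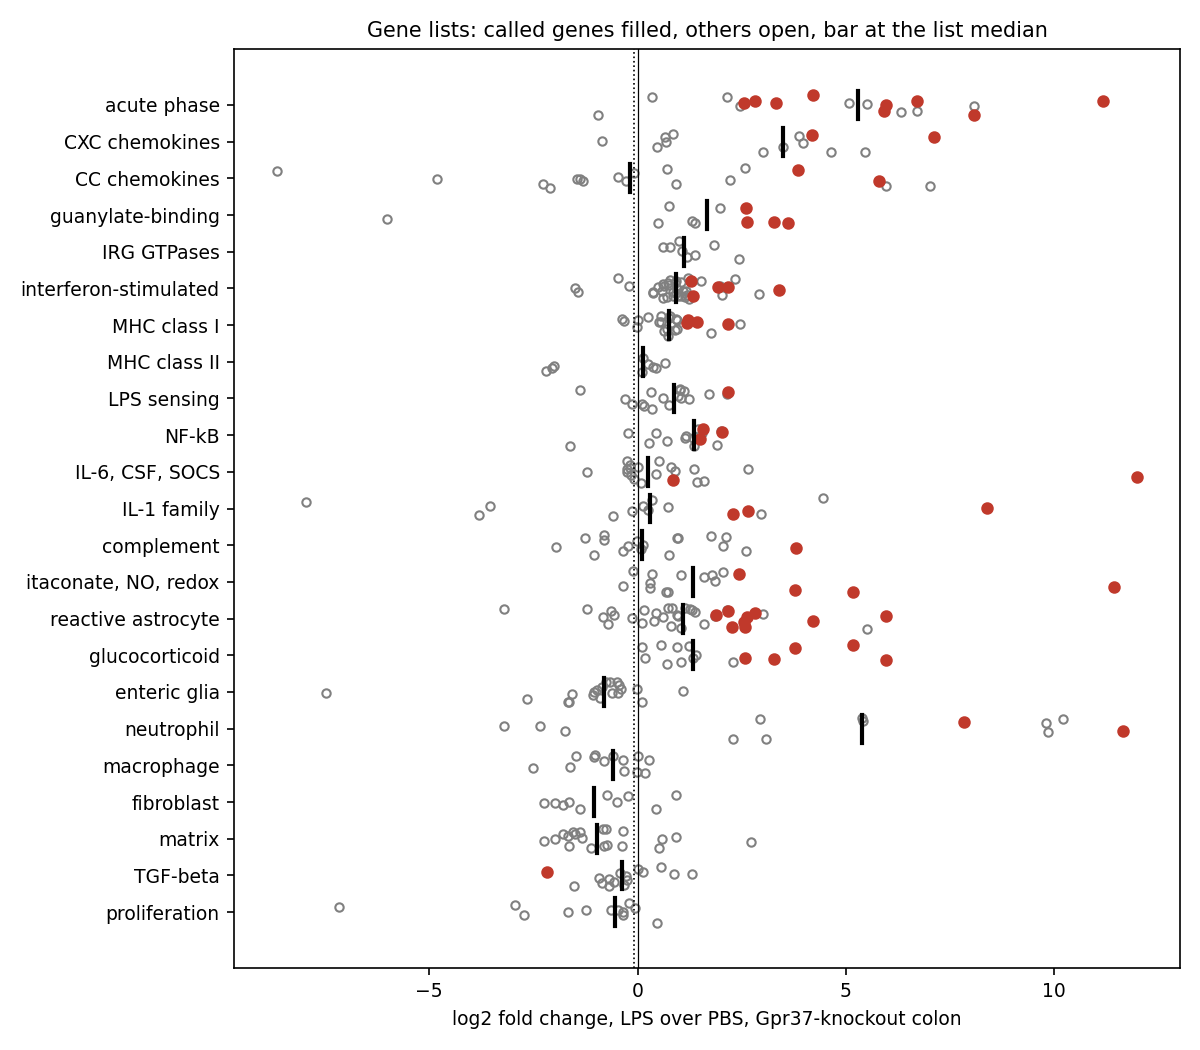
Log2 difference of LPS against PBS for each tested member of 23 gene lists; filled points passed an adjusted p of 0.05, the bar is the list median and the dotted line the median of all genes. The called members lie to the right in every list shown except the TGF-beta list, where Pmepa1 lies to the left; genes with 3 or fewer counts in every library of 1 group are plotted at their fitted value, which is no bound.

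Neutrophil markers were higher in sum after LPS. Summed over 15 genes they came to 488, 898, 729.9 and 1210 CPM after LPS and to 180.3, 188, 2.04, 150.4 and 188 CPM after PBS, with no overlap. Over the 13 tested genes the median log2 difference was 5.38 (range 2.57 to 6.46), or 2.95 with 7 genes at their bound. Of the 13, 10 had a positive difference and 3 a negative one, the lowest at a fitted -3.19. The largest part of the sum was Lrg1, which many tissues also make in inflammation, at 454, 814, 346 and 683 CPM after LPS and 165, 175, 1.94, 78.0 and 169 CPM after PBS, a difference that did not pass (adjusted p = 0.364). Without it, a sum chosen after the data were seen, the remaining 14 genes (CPM without TMM factors, as for all sums, so that they differ from the sum less the level of Lrg1 given above) came to 12.6, 87.3, 431 and 526 CPM after LPS and to 1.97, 2.55, 0.323, 65.7 and 49.2 CPM after PBS. LPS mouse 11 then lay below PBS mice 20 and 7, and the other 3 LPS libraries above all PBS libraries. In the PBS libraries 6 of the 15 genes were at 0 throughout, among them Mmp8, Ngp, Camp and Ltf. LPS mouse 11 was also at 0 for S100a9, Ly6g, Ngp and Ltf, but not for Camp, S100a8 and Itgam (1.93, 0.403 and 5.16 CPM). S100a8, a calcium-binding protein that fills the neutrophil cytosol, was at 0.403, 36.8, 156 and 306 CPM after LPS and 0.260, 0, 0, 0 and 0 CPM after PBS and rose (adjusted p = 0.0219), although LPS mouse 11 was near 0. Camp, an antimicrobial peptide of neutrophil granules, was at 1.93, 0.889, 9.65 and 0 CPM after LPS and 0 after PBS, at least 6.80-fold higher (adjusted p = 0.0219), or at least 2.05-fold without LPS mouse 2. Fpr2, a chemotactic receptor of myeloid cells, was at 1.61, 6.40, 9.65 and 3.85 CPM after LPS and 0 after PBS, at least 11.7-fold higher (adjusted p = 0.01). Igsf6, a membrane protein of myeloid cells, was at 3.14, 2.31, 15.6 and 24.2 CPM after LPS and 1.04, 0, 0, 0.273 and 0.225 CPM after PBS and rose by 5.46 ± 1.31 (SE) on the log2 scale (adjusted p = 0.0346). Under the block of same-numbered mice the adjusted p became 0.154 for S100a8, 0.113 for Camp and 0.149 for Igsf6. Restricted to mice 11 and above, the log2 difference of Igsf6 was 4.91, and S100a8 (adjusted p = 0.178), Camp (adjusted p = 0.174), Fpr2 (adjusted p = 0.101) and Igsf6 (adjusted p = 0.207) did not pass. S100a8 missed the threshold without any 1 of LPS mice 2 or 21, or PBS mice 12, 15, 1, 20 or 7 (adjusted p = 0.0517 to 0.0724). Camp missed the threshold without any 1 of LPS mouse 2, or PBS mice 15, 1 or 20 (adjusted p = 0.0617 to 0.145). Igsf6 missed the threshold without any 1 of LPS mice 2 or 21, or PBS mice 15, 1, 20 or 7 (adjusted p = 0.0765 to 0.105). Among calls with no overlap and an average log2 CPM of at least 3, the 12 largest rises also took in Tnfrsf9 (4-1BB), a costimulatory receptor of the TNF receptor family that is not on the TNF family list, and Plet1, a surface protein of epithelial progenitors and some leukocytes. Tnfrsf9 was at 0.322, 18.5, 107 and 2.29 CPM after LPS and 0 after PBS, at least 69.8-fold higher (adjusted p = 0.0253), or at least 15.3-fold without LPS mouse 2. Plet1 was at 1.61, 9.42, 8.58 and 7.59 CPM after LPS and 0.260, 0, 0, 0 and 0 CPM after PBS and rose (adjusted p = 0.029). The blocked fit gave an adjusted p of 0.122 for Tnfrsf9 and 0.125 for Plet1. Within the 6 libraries of mice 11 and above, Tnfrsf9 (adjusted p = 0.18) did not pass. Tnfrsf9 missed the threshold without any 1 of LPS mouse 2, or PBS mice 12, 15, 1, 20 or 7 (adjusted p = 0.0561 to 0.141). Plet1 missed the threshold without any 1 of LPS mice 17, 2 or 21, or PBS mice 12, 15, 1, 20 or 7 (adjusted p = 0.0505 to 0.0954).

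**Figure D3:**
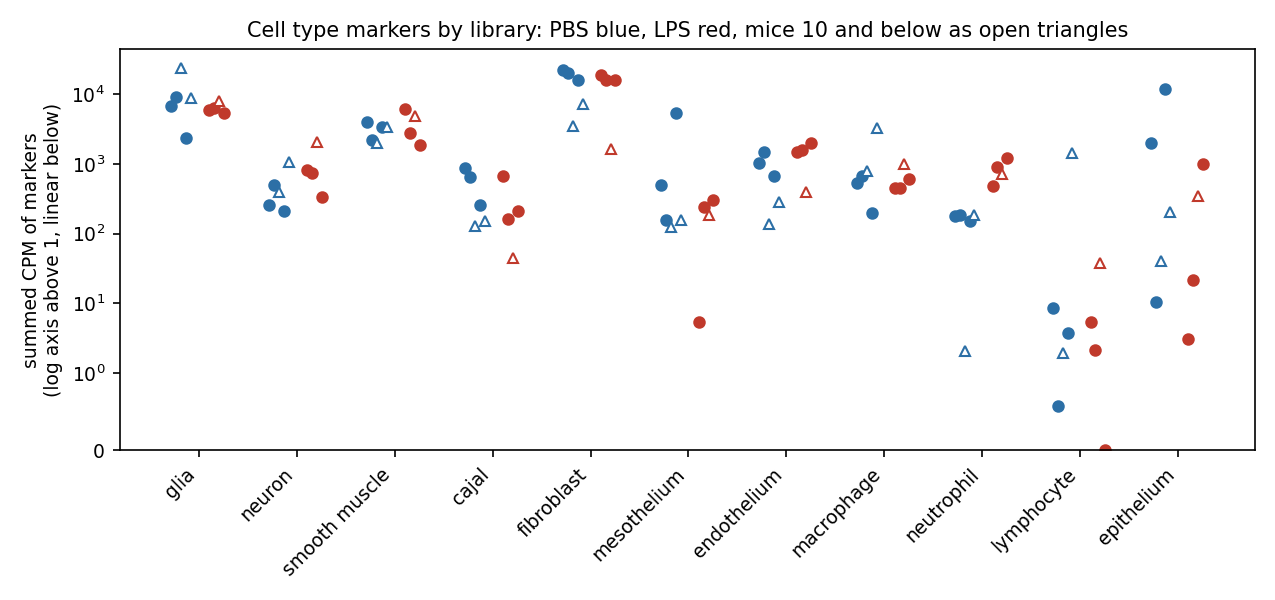
Summed CPM of 11 cell-type marker lists in each of the 9 libraries, on an axis that is logarithmic above 1, PBS in blue and LPS in red, open triangles for mice 10 and below. Neutrophil markers are the list whose groups do not overlap (488 to 1210 CPM after LPS, 2.04 to 188 after PBS), which they do once Lrg1 is left out, and fibroblast markers are lowest in mice 1, 2 and 7.

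The lowered genes were fewer, and 1.37% of all genes had every LPS library below every PBS library. Wfdc1, a secreted protein with a protease inhibitor domain, was at 32.1, 13.5, 19.3 and 16.3 CPM after LPS and 70.4, 35.2, 137, 86.3 and 104 CPM after PBS. No LPS library reached the PBS range, and the gene fell by 2.09 ± 0.39 (SE) on the log2 scale (adjusted p = 0.00611). Maged2, of the MAGE family, was at 68.4, 93.5, 151 and 58.0 CPM after LPS and 368, 371, 231, 183 and 317 CPM after PBS and fell by 1.67 ± 0.32 (SE) on the log2 scale (adjusted p = 0.00705). Pmepa1, an inhibitor of TGF-beta signalling that TGF-beta induces, was at 58.2, 45.1, 72.7 and 45.9 CPM after LPS and 170.3, 204, 424, 75.8 and 374 CPM after PBS. Pmepa1 fell by 2.17 ± 0.48 (SE) on the log2 scale (adjusted p = 0.0191) and was the 1 call of 16 genes of that pathway (median -0.38, range -0.63 to -0.30). Tppp3, a tubulin-binding protein, was at 772, 377, 385 and 445 CPM after LPS and 2210, 2135, 3244, 962 and 1803 CPM after PBS and fell by 2.07 ± 0.46 (SE) on the log2 scale (adjusted p = 0.0205). Prss23, a secreted serine protease, was at 180.4, 153, 93.6 and 171 CPM after LPS and 559, 616, 605, 332 and 242 CPM after PBS and fell by 1.65 ± 0.36 (SE) on the log2 scale (adjusted p = 0.0182). Its antisense neighbour Prss23os fell by 1.73 ± 0.37 (SE) on the log2 scale (adjusted p = 0.017). Whether counting used strand is not given, so reads of that pair cannot be told apart. Adjusted p in the fit with the block was 0.107 for Pmepa1 and 0.0622 for Tppp3. In mice 11 and above alone (3 LPS, 3 PBS), the log2 difference of these genes was -2.04 to -1.56, and Wfdc1 (adjusted p = 0.0977), Pmepa1 (adjusted p = 0.0646) and Tppp3 (adjusted p = 0.0817) did not pass. Pmepa1 missed the threshold without any 1 of LPS mice 17, 2 or 21, or PBS mice 1 or 7 (adjusted p = 0.0522 to 0.0791). Tppp3 missed the threshold without any 1 of LPS mice 17, 2 or 21, or PBS mouse 1 (adjusted p = 0.0617 to 0.106). Prss23 missed the threshold without any 1 of LPS mice 17 or 2 (adjusted p = 0.0549 to 0.108). Prss23os missed the threshold without any 1 of LPS mice 17 or 2 (adjusted p = 0.0534 to 0.105).

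Ccnd2, cyclin D2, which moves cells from G1 into S phase, was at 383, 216, 236 and 250.2 CPM after LPS and 634, 600.5, 479, 555 and 512 CPM after PBS. Its PBS libraries lay close together, every LPS library was below them, and Ccnd2 fell by 1.04 ± 0.20 (SE) on the log2 scale (adjusted p = 0.00705). Crip1, a small LIM-domain protein, was at 424, 406, 465 and 417 CPM after LPS and 843, 943, 1107, 1608 and 1655 CPM after PBS and fell by 1.52 ± 0.34 (SE) on the log2 scale (adjusted p = 0.0219). Fam129a (Niban), a stress-induced protein, was at 171, 119, 179.9 and 159 CPM after LPS and 310.3, 367, 524, 192 and 567 CPM after PBS and fell by 1.32 ± 0.32 (SE) on the log2 scale (adjusted p = 0.0376). Slc26a2, a sulfate transporter needed to sulfate matrix proteoglycans, was at 14.9, 27.4, 2.15 and 22.3 CPM after LPS and 61.5, 30.4, 47.3, 313 and 133 CPM after PBS and fell by 2.80 ± 0.70 (SE) on the log2 scale (adjusted p = 0.048). PBS mouse 20, which was highest for Slc26a2, was also highest in epithelial markers, at 11930 CPM over 12 genes against 2035 CPM or less in the other libraries, and their part in the result was not tested. The other 2 lowered genes were Lypd6 and Ptn, which lie outside the rule for named genes. Lypd6, a modulator of nicotinic receptors, was at 0 CPM in all 4 LPS libraries and at 3.90, 5.79, 33.0, 0.888 and 6.31 CPM after PBS, at least 20.6-fold lower (adjusted p = 0.00896), or at least 8.71-fold without PBS mouse 1. Ptn, pleiotrophin, a secreted growth factor, was at 119, 92.6, 114 and 52.2 CPM after LPS and 250, 348, 303, 98.8 and 476 CPM after PBS and fell by 1.64 ± 0.39 (SE) on the log2 scale (adjusted p = 0.0323), with the groups overlapping at PBS mouse 20. With same-numbered mice as a block the adjusted p was 0.108 for Crip1, 0.18 for Fam129a, 0.122 for Slc26a2 and 0.11 for Ptn. Among mice 11 and above, the log2 difference of these genes with counts in both groups was -2.64 to -0.93, and Fam129a (adjusted p = 0.18), Slc26a2 (adjusted p = 0.0569) and Ptn (adjusted p = 0.188) did not pass. Crip1 missed the threshold without any 1 of LPS mice 11, 17, 2 or 21, or PBS mice 20 or 7 (adjusted p = 0.0515 to 0.0819). Fam129a missed the threshold without any 1 of LPS mice 11, 17, 2 or 21, or PBS mice 15, 1 or 7 (adjusted p = 0.0531 to 0.147). Slc26a2 missed the threshold without any 1 of LPS mice 11, 17, 2 or 21, or PBS mice 12, 20 or 7 (adjusted p = 0.0525 to 0.215). Ptn missed the threshold without any 1 of LPS mice 17, 2 or 21, or PBS mice 15, 1 or 7 (adjusted p = 0.0617 to 0.13). Proliferation genes gave no call among 12 (median -0.54, range -1.32 to 0.15, with a positive value without PBS mouse 20).

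**Figure D4:**
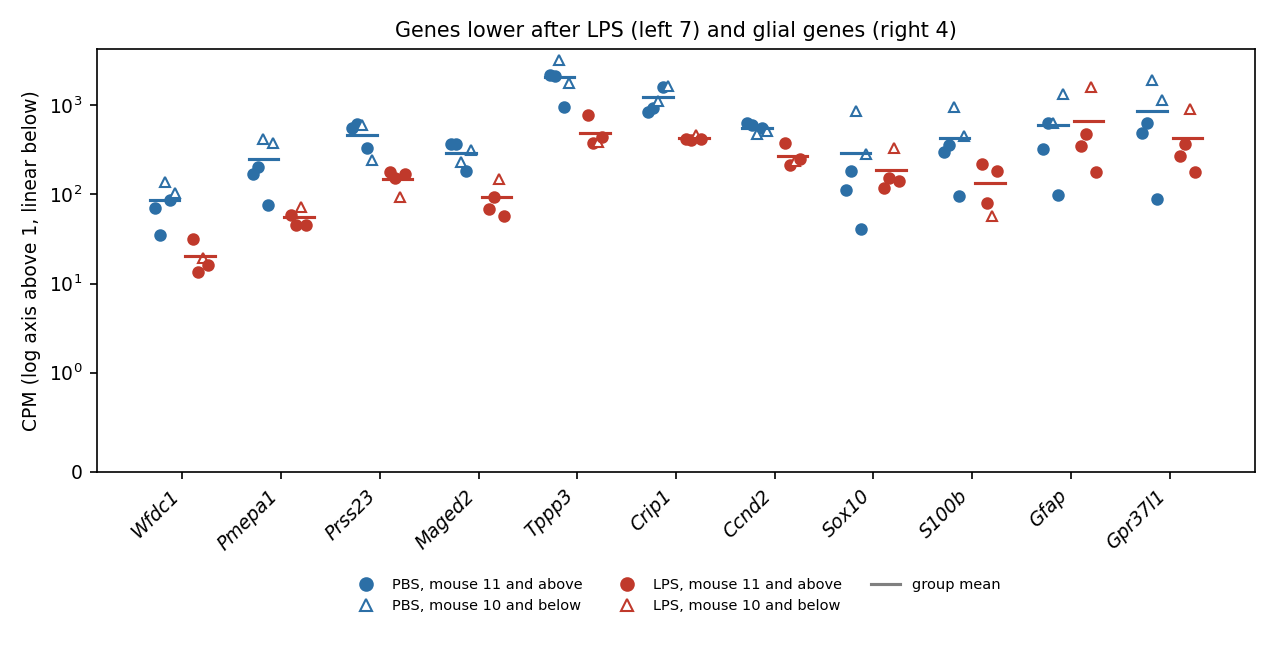
CPM of 7 lowered genes and 4 glial genes in each library, on an axis that is logarithmic above 1, PBS in blue and LPS in red, bars at group means, open triangles for mice 10 and below. The lowered genes separate the groups, while Sox10, S100b, Gfap and Gpr37l1 overlap, and for Sox10 the highest and the lowest library are both PBS (mouse 1 and mouse 20).

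Glial identity genes were lower on average but none passed. Of 20 tested, 18 had a negative log2 difference (median -0.81, range -1.05 to -0.23, against -0.07 over all genes). The median was -0.27 without PBS mouse 1, -0.23 in mice 11 and above and -0.44 with the block, and -1.05 without LPS mouse 2. Sox10, the transcription factor of the glial lineage, was at 119.7, 151, 333 and 140.2 CPM after LPS and 112, 182, 858, 40.9 and 282 CPM after PBS, a difference of -0.67 ± 0.80 (SE) on the log2 scale (adjusted p = 0.799), and the PBS libraries alone ran from the lowest value of the 9 (mouse 20) to the highest (mouse 1). S100b, a calcium-binding protein of glia, was at 219, 80.7, 57.1 and 184 CPM after LPS and 299, 362, 949.7, 97.1 and 453 CPM after PBS, a difference of -1.67 ± 0.69 (SE) on the log2 scale (adjusted p = 0.307). Gfap, the intermediate filament raised in reactive astrocytes, was at 350.4, 481, 1629 and 179.9 CPM after LPS and 323, 638, 639.7, 97.6 and 1341 CPM after PBS, a difference of 0.12 ± 0.65 (SE) on the log2 scale (adjusted p = 0.972). None of these genes separated the groups, and a change within the spread of the PBS libraries was not detectable here. Gpr37l1, the closest relative of Gpr37, was at -0.98 ± 0.71 (SE) on the log2 scale (adjusted p = 0.613), and Psap, which encodes prosaposin, at 0.29 ± 0.23 (SE) on the log2 scale (adjusted p = 0.666).

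A list of 36 genes known from reactive astrocytes of the brain gave 9 rises, against 0.637% of all genes, and no fall (median 1.09). In 12 the LPS libraries all lay above the PBS libraries, against 2.07% of all genes. The log2 difference was positive in 29 and negative in 7. The called members were Serpina3n, H2-T23, Lcn2, Fkbp5, Cp, Gbp2 and Timp1, all described above, and, outside the rule, Slc10a6 and Sphk1. Slc10a6, a transporter of steroid sulfates, was at 65.0, 120, 175 and 102 CPM after LPS and 32.2, 35.1, 23.7, 26.2 and 2.93 CPM after PBS and rose by 2.26 ± 0.50 (SE) on the log2 scale (adjusted p = 0.0191). Sphk1, a kinase that makes sphingosine-1-phosphate, was at 26.0, 118, 169.7 and 78.2 CPM after LPS and 33.0, 18.9, 25.0, 26.7 and 29.8 CPM after PBS and rose by 1.88 ± 0.43 (SE) on the log2 scale (adjusted p = 0.0253). Under the block of same-numbered mice the adjusted p became 0.076 for Slc10a6 and 0.176 for Sphk1. Restricted to mice 11 and above, the log2 difference of Slc10a6 and Sphk1 was 1.64 and 1.53, and Sphk1 (adjusted p = 0.233) did not pass. Leaving out LPS mouse 2 gave an adjusted p of 0.103 for Slc10a6. Sphk1 missed the threshold without any 1 of LPS mice 17 or 2, or PBS mice 15, 1, 20 or 7 (adjusted p = 0.0522 to 0.242). Among 22 genes of glial signalling none passed (median -0.36, range -0.85 to -0.09), with Gfra2, a receptor subunit for neurturin, at -2.61 ± 0.89 (SE) on the log2 scale (adjusted p = 0.197).

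Other cell types of the gut wall gave no called marker apart from the 2 neutrophil genes. Fibroblast markers had a median log2 difference of -1.05 over 10 genes, and Col3a1, Postn and Col14a1 had every LPS library below every PBS library. The summed fibroblast markers overlapped between the groups. They ran from 1648 to 18710 CPM after LPS (median 16300) and from 3488 to 22390 CPM after PBS (median 16040). Postn, periostin, was at 176, 260.5, 259.5 and 284 CPM after LPS and 520.1, 569.5, 754, 1167 and 813 CPM after PBS, a difference of -1.64 ± 0.47 (SE) on the log2 scale (adjusted p = 0.102). Col14a1, a fibril-associated collagen, was at 56.4, 41.6, 19.0 and 31.8 CPM after LPS and 211, 191, 77.4, 144 and 114 CPM after PBS, a difference of -1.98 ± 0.57 (SE) on the log2 scale (adjusted p = 0.102). Of 20 extracellular matrix genes, 16 had a negative difference (median -0.97), 5 had every LPS library below every PBS library and none passed. In the fit of mice 11 and above the medians of these lists were similar (-1.09 for fibroblast markers and -1.02 for matrix genes), but other members passed. There 3 fibroblast markers fell, namely Col3a1 (by 1.80 on the log2 scale, adjusted p = 0.0415), Col6a3 (by 2.39, adjusted p = 0.0422) and Col14a1 (by 2.05, adjusted p = 0.0179). These 3 and Col5a2 (-1.45, adjusted p = 0.0415) were the 4 matrix genes called there, while no neutrophil marker was. Macrophage markers had a median of -0.60 over 13 genes (range -0.92 to 0.52), which was 0.52 in mice 11 and above, 0.32 with the block and 0.42 without PBS mouse 7, and summed to 449 to 986 CPM after LPS and 195 to 3266 CPM after PBS. Neuron markers had a median of 0.86 over 12 genes (range 0.25 to 1.90). Tac1, which encodes substance P, was highest in LPS mouse 2 at 954 CPM, with a difference of 3.97 ± 1.17 (SE) on the log2 scale (adjusted p = 0.115). In that library the neuron markers also summed highest, at 2063 CPM. Epithelial markers were negative in 12 of 12 (median -3.20, range -4.46 to 0.07) with none called, and the median was 0.07 without PBS mouse 20. Lymphocyte markers summed to 1421 CPM in PBS mouse 7 and to 38.2 CPM or less elsewhere.

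The response was then set beside that of mice labelled wild type. Their colon at 24 h had 4 PBS and 5 LPS libraries from other mice, in the same fit, and gave 1186 calls (7.96% of genes, 590 higher and 596 lower). Of the 107 knockout calls 73 were also called there, all in the same direction. That is 68.2% of the knockout calls and 6.16% of the wild-type calls. In wild-type colon the log2 difference was 3.35 ± 0.39 (SE, adjusted p = 2.74e-06) for Irf7, 4.80 ± 0.74 (SE, adjusted p = 0.000146) for Mt2, 3.61 ± 0.60 (SE, adjusted p = 0.000302) for Serpina3n and 3.88 ± 1.05 (SE, adjusted p = 0.0199) for Lcn2. Among lowered genes it was -2.10 ± 0.37 (SE, adjusted p = 0.000642) for Wfdc1, -3.03 ± 0.32 (SE, adjusted p = 9.03e-07) for Maged2 and 0.95 ± 0.65 (SE, adjusted p = 0.384) for Slc26a2. The last of these had the opposite sign in knockouts, and the gap between genotypes was -3.75 ± 0.95 (SE, adjusted p = 0.164). Of the 107, 40 had the larger change in the wild type. The 107 were chosen by passing in the knockout, which favours larger values there, so this count does not compare the genotypes. The difference of the LPS effect between genotypes was tested for every gene, and edgeR called none of 14903 (0%), with 2009 at an unadjusted p under 0.05 and a smallest adjusted p of 0.117. DESeq2 called 340.

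The gene with the smallest p was Lrrtm1, a synaptic adhesion protein, at 19.2, 14.4, 26.3 and 16.6 CPM after LPS and 16.6, 25.3, 51.7, 3.62 and 105 CPM after PBS in knockouts. Its log2 difference was -1.08 there and -6.99 ± 0.94 (SE, adjusted p = 2.58e-05) in the wild type, which differ by 5.92 ± 1.14 (SE, adjusted p = 0.117). That gap passed with the replicate block (adjusted p = 0.0331), with the division by mouse number as a covariate (adjusted p = 0.0233), in mice 11 and above (adjusted p = 0.0313) and without wild-type LPS mouse 13 or knockout PBS mouse 7 (adjusted p = 0.0148 and 0.0139), with DESeq2 (adjusted p = 5.33e-05), and not in the colon libraries alone (adjusted p = 0.479). Next were Hat1, a histone acetyltransferase, and H3f3b, a gene of histone H3.3. Hat1 differed by -0.04 in knockouts and 1.32 in the wild type, a gap of -1.36 ± 0.27 (SE, adjusted p = 0.117), which passed with DESeq2 (adjusted p = 1.35e-05) and without wild-type LPS mouse 16 (adjusted p = 0.0494). H3f3b differed by 0.25 and 1.61, a gap of -1.36 ± 0.28 (SE, adjusted p = 0.117), which passed with DESeq2 (adjusted p = 5.31e-05), in mice 11 and above (adjusted p = 0.0107) and without knockout LPS mouse 2 (adjusted p = 0.0122). The wild-type groups were unequal in mouse numbers, since all 4 PBS libraries came from mice 11 and above and 3 of 5 LPS libraries from mice 3, 5 and 8. These 3 LPS libraries also held only 2, 0 and 0 counts of Gpr37, so that Gpr37 does not set them apart from knockouts. Of the same mice, 8 and 3 also gave small intestine after LPS, with 100 and 0 counts. With mice 11 and above alone, 25 genes differed between genotypes, 21 with the higher value in the knockout and 4 with the lower. The wild-type LPS group of that fit held only mice 13 and 16. The values of Lrrtm1 and H3f3b given above for mice 11 and above rest on the same libraries.

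**Figure D5:**
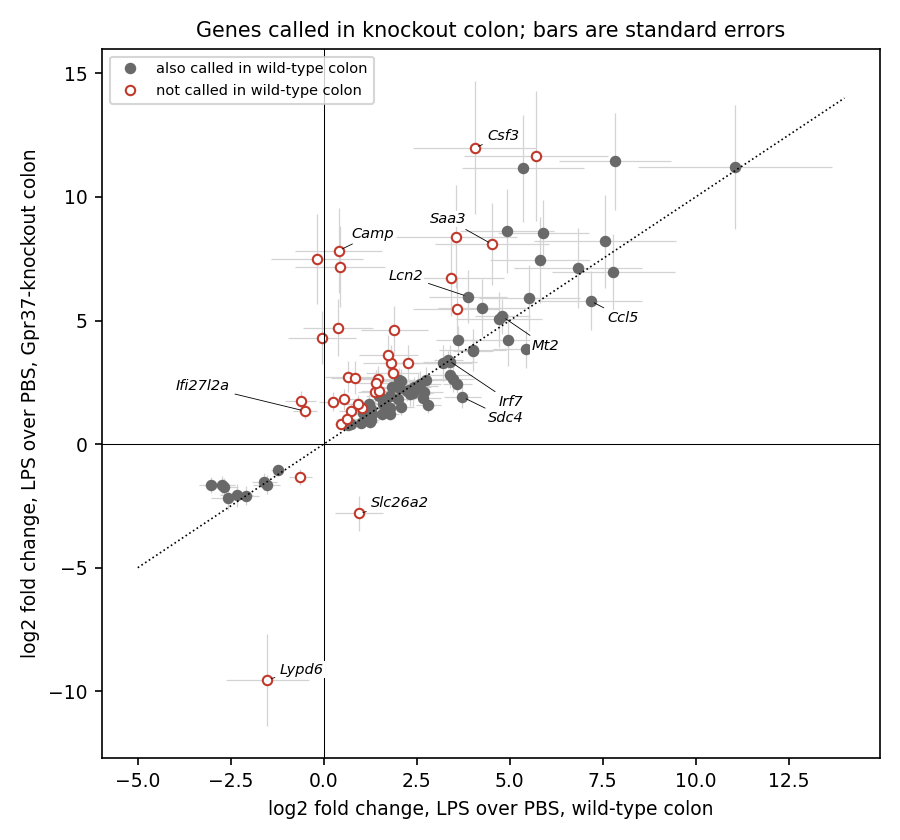
Log2 difference of LPS against PBS in colon labelled wild type (x axis) and in knockout colon (y axis) for the 107 genes called in knockouts, with SE bars. The 73 genes called in both lie in the same direction, and Slc26a2 (-2.80 in knockouts and 0.95 in the wild type) has opposite signs. Fitted values of genes without counts in 1 group are no bound.

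In the small intestine of the knockouts (4 PBS and 5 LPS libraries), 107 genes were called, 79 higher and 28 lower, and 47 of them were among the 107 of the colon, all in the same direction. The overlap is 43.9% of each list. The 2 regions are not independent, because 7 knockout mice gave both. The log2 difference in small intestine was 6.38 ± 1.19 (SE, adjusted p = 0.00389) for Lcn2, 9.06 ± 1.91 (SE, adjusted p = 0.0122) for Saa3, 3.08 ± 0.38 (SE, adjusted p = 4.02e-05) for Irf7 and 3.60 ± 0.53 (SE, adjusted p = 0.000365) for Mt1. For Cxcl1 it was 1.63 ± 1.00 (SE, adjusted p = 0.59) beside 4.20 in colon. For Cfb it was 1.33 ± 0.80 (SE, adjusted p = 0.581) beside 3.82 in colon. No gene differed between the regions in its LPS effect by edgeR (0% of genes, smallest adjusted p 0.98, with 615 at an unadjusted p under 0.05), so these gaps were not called. That fit treats all libraries as independent. With mouse as a block, in the knockout mice that gave both regions, the count was also 0 (325 at an unadjusted p under 0.05). DESeq2 called 72. Clec4e and Plbd1, genes of myeloid cells, were among those with the smallest p-values.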

How the data were processed

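A micro-scale column kit (RNeasy Plus Micro) was used for RNA and libraries were made with Smart-seq2, per the labels' protocols, without molecular identifiers, so PCR copies cannot be told from separate molecules. The authors deposited a table of raw read counts per gene symbol for the 24 h experiment (21076 symbols, of which 25 read as dates and were not named). Trim Galore 0.4.4, STAR 2.5.3, DESeq2 and the build GRCm38 are listed per the submitters' processing notes, without roles. The read counter, the annotation and the use of strand are not given in the sources used here. The untreated and 2 h libraries were not used here. All 37 libraries of the 24 h experiment were fitted in 1 model of 8 groups (29 residual degrees of freedom) with filterByExpr, TMM and edgeR 4.0.16 quasi-likelihood tests in R 4.3.3, two-sided. p-values were adjusted by the Benjamini-Hochberg method over 14903 genes, and a gene was called under 0.05. The SE of a log2 difference was obtained from its F statistic. CPM of single genes were scaled by TMM, and summed CPM of marker lists were not.

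The members and the 34 gene lists were chosen with earlier results of these data known. Genes named by rule were, among calls with no overlap and an average log2 CPM of at least 3, those with the largest rises and falls (up to 12 each), up to 4 called members of each list by p (or 2 where none was called), a fixed set of glial genes, and those with the smallest p for each difference of effects. Predicted genes were left out, and some genes that the rule names are not reported here. Other named genes (Hp, Slc39a14, Serpina3f, Angptl4, Ifi27l2a, H2-K1, H2-D1, B2m, Cxcl9, Cxcl10, Nfkbia, Tlr4, Cd14, C3, Lrg1, S100a9, Slc10a6, Sphk1, Lypd6, Ptn, those listed by name as called in every fit or only in another fit, and those under other observations) were chosen after their values were seen. If a group had no count of a gene, its fold is given as a bound against 3 counts per library; with 1 to 3 counts no fold is given, and list medians at the bound take in both kinds.

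Replicates 1 to 4 of the LPS and PBS groups share numbers in the labels, and same-numbered mice share a sex. Their deviations from the group means correlated in all 4 pairs (0.12 to 0.277, mean 0.175, against -0.183 to 0.258, mean -0.0378, for other pairs), so a block fit was made as an alternative. The labels do not state a pairing, and LPS mouse 11 with PBS mouse 15, of unlike replicate numbers, reached 0.258. Alternatives were RLE size factors, no filter, sex or a division by mouse number at 10 as covariates, mice 11 and above, DESeq2 1.42.0, the 9 libraries alone, the block, and each library left out. No 2 libraries were identical or agreed within counting error. The model was tested on simulated counts with 200 changed genes of 14903. It called 110 genes, 2 of them false, and recovered 12%, 46%, 72% and 86% of genes changed 2-, 4-, 8- and 16-fold. The changed genes were drawn from the better expressed ones, so recovery of genes with low counts was not measured. Counts were drawn independently around a common mean per gene, without the division of mice or differences in cell content. False calls under such differences were thus not measured either. Promoters are the 250 bases before each RefSeq gene start (GRCm38.p6), matched by symbol. Plots were made with Python 3.11.15 and matplotlib 3.10.9.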

Additional observations from a re-analysis of the deposited data

Results flagged for a closer look

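Of 138 groups of 4 or 5 libraries examined on the log2 scale for a single library far from the rest, 10 had one. The cutoff is set for about 1 in 20 groups by chance with continuous values. That rate was not checked here and need not hold for genes with counts in 1 library only. In the LPS group, Il18bp was at 254 CPM in mouse 2 and at 47.8 to 55.9 CPM in the others. Lcn2 was at 1074 CPM in LPS mouse 11 and at 5003 to 6750 CPM in the others, and Plet1 at 1.61 CPM in that mouse and at 7.59 to 9.42 CPM in the others. Among PBS libraries, 3 genes had a count in 1 mouse and none in the rest: Il1r2 at 0.121 CPM in mouse 1, Plet1 at 0.260 CPM in mouse 12 and S100a8 at 0.260 CPM in mouse 12. Summed markers stood apart in 4 libraries. Those of fibroblasts were at 1648 CPM in LPS mouse 2 against 16300 to 18710 CPM, and those of mesothelium at 5.31 CPM in LPS mouse 11 against 188 to 299.9 CPM. Lymphocyte markers were at 1421 CPM in PBS mouse 7 against 0.567 to 8.44 CPM, and neutrophil markers at 2.04 CPM in PBS mouse 1 against 150.4 to 188 CPM.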

How the results depend on the processing

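The number of genes called in knockout colon stayed within 1.5 times of 107 with RLE size factors (107), no filter (96), sex as a covariate (102), the division by mouse number as a covariate (109 higher and 17 lower) and mice 11 and above (93, with 69 higher and 24 lower, and 46 of them among the 107). It was 474 with DESeq2 (271 higher and 203 lower), 7 in a fit of the 9 libraries alone and 53 with the replicate block. Leaving out 1 library gave 28 to 191. All 107 calls kept their direction under every alternative in which they were tested. Between genotypes, the count of 0 became 1 with the division as a covariate and 1 with the replicate block (Lrrtm1 in both), 25 in mice 11 and above and 340 with DESeq2 (112 with the larger and 228 with the smaller value in knockouts), and 0 to 5 with 1 library left out, the highest without wild-type LPS mouse 16. Between regions it became 72 with DESeq2 (20 with the larger and 52 with the smaller value in colon). Of the 56 called genes named by rule, 34 kept the call with the block, 29 in mice 11 and above and 21 to 53 with 1 library left out, and 5 of the 51 tested there in the 9 libraries alone; none reversed. The block changed no call of these genes other than those given with it. At this depth and number of mice the simulation recovered 12% of 2-fold changes, so genes that were not called cannot be taken as unchanged. The median of 9 of the 34 gene lists changed sign in at least 1 other fit. Floors of 3 counts cover counting error only.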

Other observations

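Outside the gene lists, 5 of the higher calls were host genes of small nucleolar RNAs, long noncoding transcripts that carry snoRNAs in their introns. They were chosen after their values were seen. Of 16 genes tested that have an Snhg symbol or are Gas5 or Zfas1, these 5 rose, none fell and 11 had a positive log2 difference (median 1.26). Zfas1 was at 55.8, 107, 96.0 and 107 CPM after LPS and 20.8, 14.8, 20.4, 30.9 and 5.63 CPM after PBS, with no overlap, and rose by 2.30 ± 0.35 (SE) on the log2 scale (adjusted p = 0.000416). It was called in the blocked fit, in mice 11 and above and in all 9 fits that left out 1 library. Snhg5 was at 26.9, 123, 81.2 and 84.3 CPM after LPS and 19.2, 22.7, 22.7, 7.72 and 0.676 CPM after PBS and rose by 2.43 ± 0.52 (SE) on the log2 scale (adjusted p = 0.0153), also with no overlap. Gas5 was at 294, 661, 549.8 and 515 CPM after LPS and 173, 161, 199.6, 206 and 181 CPM after PBS and rose by 1.46 ± 0.33 (SE) on the log2 scale (adjusted p = 0.0224). Snhg3 and Snhg8 differed by 1.81 and 1.03 (adjusted p = 0.036 and 0.0442). The blocked fit gave an adjusted p of 0.102 for Gas5, 0.235 for Snhg3 and 0.0584 for Snhg8. Within the 6 libraries of mice 11 and above, the log2 difference of these genes was 0.97 to 2.27, and Gas5 (adjusted p = 0.0582), Snhg3 (adjusted p = 0.349) and Snhg8 (adjusted p = 0.0689) did not pass. Snhg5 missed the threshold without any 1 of LPS mice 17 or 2 (adjusted p = 0.0508 to 0.068). Gas5 missed the threshold without any 1 of LPS mice 17, 2 or 21, or PBS mice 12, 15, 1 or 7 (adjusted p = 0.0501 to 0.0979). Snhg3 missed the threshold without any 1 of LPS mice 17, 2 or 21, or PBS mice 12, 15, 1 or 7 (adjusted p = 0.0511 to 0.337). Snhg8 missed the threshold without any 1 of LPS mice 17, 2 or 21, or PBS mice 12, 15, 1 or 20 (adjusted p = 0.0543 to 0.315). Wild-type colon gave 1.84 for Zfas1, 2.59 for Snhg5 and 1.03 for Gas5 on the log2 scale. Fth1, the heavy chain of the iron store ferritin, was at 10600, 29390, 22730 and 21510 CPM after LPS and 6892, 7108, 9497, 4517 and 5302 CPM after PBS and rose by 1.66 ± 0.37 (SE) on the log2 scale (adjusted p = 0.0215). Adjusted p in the fit with the block was 0.103 for Fth1. Fth1 missed the threshold without any 1 of LPS mice 17 or 2, or PBS mice 20 or 7 (adjusted p = 0.0539 to 0.0979). Cebpd, a transcription factor of the acute phase, was at 759, 923, 1009 and 841 CPM after LPS and 312, 289, 261, 327 and 257 CPM after PBS and rose by 1.61 ± 0.31 (SE) on the log2 scale (adjusted p = 0.00705).

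Several calls were lost without LPS mouse 2, the library with the highest sum of neuron markers. Diras1, a small GTPase of neurons, was at 3.54, 7.64, 104 and 9.28 CPM after LPS and 5.19, 0.535, 0.364, 0.342 and 0.451 CPM after PBS. Entpd3, an ectonucleotidase, was at 10.1, 1.07, 26.0 and 3.73 CPM after LPS and 2.08, 0.178, 0, 0.137 and 0 CPM after PBS. Htr3b, a serotonin receptor subunit, was at 2.74, 3.02, 42.1 and 0 CPM after LPS and 0, 0.268, 0, 0 and 0 CPM after PBS. All 3 were called (adjusted p = 0.0133, 0.0409 and 0.0229) and all 3 were highest in that library, and none was called with the block or in mice 11 and above. Without LPS mouse 2 the adjusted p was 0.352 for Diras1. Entpd3 missed the threshold without any 1 of LPS mouse 2, or PBS mice 15, 1, 20 or 7 (adjusted p = 0.0942 to 0.264). Its log2 difference was still 3.72 without LPS mouse 2. Htr3b missed the threshold without any 1 of LPS mouse 2, or PBS mice 12, 1, 20 or 7 (adjusted p = 0.0592 to 0.329). The part of neuronal RNA in them was not tested. Ncoa7, an interferon-inducible nuclear receptor coactivator, was at 89.3, 75.5, 95.4 and 72.7 CPM after LPS and 26.7, 20.6, 22.7, 26.2 and 30.7 CPM after PBS and rose by 1.71 ± 0.38 (SE) on the log2 scale (adjusted p = 0.0191), with no overlap. In wild-type colon it differed by 0.25 ± 0.38 (SE, adjusted p = 0.731), and the gap between genotypes was 1.46 ± 0.53 (SE, adjusted p = 0.23), so that a difference between them was not called. With same-numbered mice as a block the adjusted p was 0.0584 for Ncoa7. Ncoa7 missed the threshold without any 1 of LPS mouse 2, or PBS mice 15 or 1 (adjusted p = 0.0558 to 0.0789).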
